A study of Oryza sativa Indica Group with 12 samples.

Results

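The class III peroxidases considered here are 18 probe sets for 16 genes of rice, out of 57258 probe sets without controls on the GeneChip Rice Genome Array. A probe set is a group of short probes on the array that reads the transcripts of a gene. A probe set was a member if its gene carried a peroxidase symbol with a number in the array's annotation (3 probe sets, for PRX112 and PRX74), or if the study's tables of changed genes describe it as a peroxidase that is neither an ascorbate nor a glutathione peroxidase (15 probe sets). The rice family is far larger than this, and its other members carry no such symbol in the annotation used here. The 15 came from tables of genes that had changed on these same arrays, so how many of them changed with excess Fe, and in which direction, is a description and no independent evidence. Root RNA came from 2 indica cultivars grown in hydroponics, BR-IRGA 409 (susceptible to Fe toxicity) and EPAGRI 108 (tolerant), kept for 3 days with FeSO4 at 500 mg/L Fe (excess Fe) or 6.5 mg/L Fe (control). Each of the 4 groups had 3 biological replicates with 1 array each, and 12 arrays were measured in all.

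Class III peroxidases are secreted heme enzymes of plants. In the cell wall and the vacuole they use hydrogen peroxide to oxidise phenolic substrates, which joins monolignols into lignin, links wall polymers and, in roots, takes part in building the lignified Casparian strip and suberised barriers. They can also generate reactive oxygen, which loosens walls, so that single members are known for opposite effects on growth. They are to be told apart from ascorbate peroxidases, which remove hydrogen peroxide inside the cell.

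Levels are log2 values from RMA, a method that corrects for background, brings the arrays to a common distribution and gives 1 value per probe set and array. Levels of different probe sets are not compared. The array was made mostly for transcripts of japonica rice, and whether its probes match both indica cultivars alike was not tested. A change is the log2 difference of 2 group means with its standard error (SE) from limma, fitted over all probe sets, and a call needed at least 3-fold and a p under 0.05 after Benjamini-Hochberg adjustment over all 57258. Array medians lay between 5.16 and 5.22. The root markers Lsi1 and Lsi2, silicon transporters of the root, stood at 11.88 or more on every array. Of 3 leaf markers, RBCS-A lay on all arrays under the brightest control probe set without a target in rice (4.51 to 5.01, depending on the array), while CAB2R, a chlorophyll-binding protein gene, and RBCS, the small subunit of Rubisco, were detected throughout. The sum of the linear values of these 3 was 3268 to 6909 in BR-IRGA 409 control, 2578 to 3454 in BR-IRGA 409 excess Fe, 839.1 to 2019 in EPAGRI 108 control and 822.1 to 1117 in EPAGRI 108 excess Fe. CAB2R was called lower in EPAGRI 108 under both treatments (-2.04 in control and -1.80 in excess Fe), and the part of leaf-type RNA in the results was not tested. In RNA from whole roots, fewer cells of a type and less RNA per cell cannot be told apart. The arrays numbered 1 of EPAGRI 108 stood apart from the other 2 of their groups for many peroxidases, so those results are also given without them.

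In BR-IRGA 409 the peroxidases listed by the study were split between those that rose and those that fell with excess Fe, as the choice of 14 of them for a change there would give, and the 3 probe sets found by symbol were not called. Among the 18 there were 8 up-regulated and 7 down-regulated probe sets, for 14 genes in all, with log2 changes from 4.20 (OsPrx131) to -3.18 (OsPrx107) among those measured in both groups. Over all probe sets 1.1% were called higher and 0.25% lower in this comparison, and 14 of the members came from tables made from it. The median size of the change was 2.70 in log2 over the 18 probe sets and 0.138 over all probe sets. The groups did not overlap in 8 probe sets that were higher and 8 that were lower, against 11.1% and 13.1% of all probe sets.

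**Figure D1:**
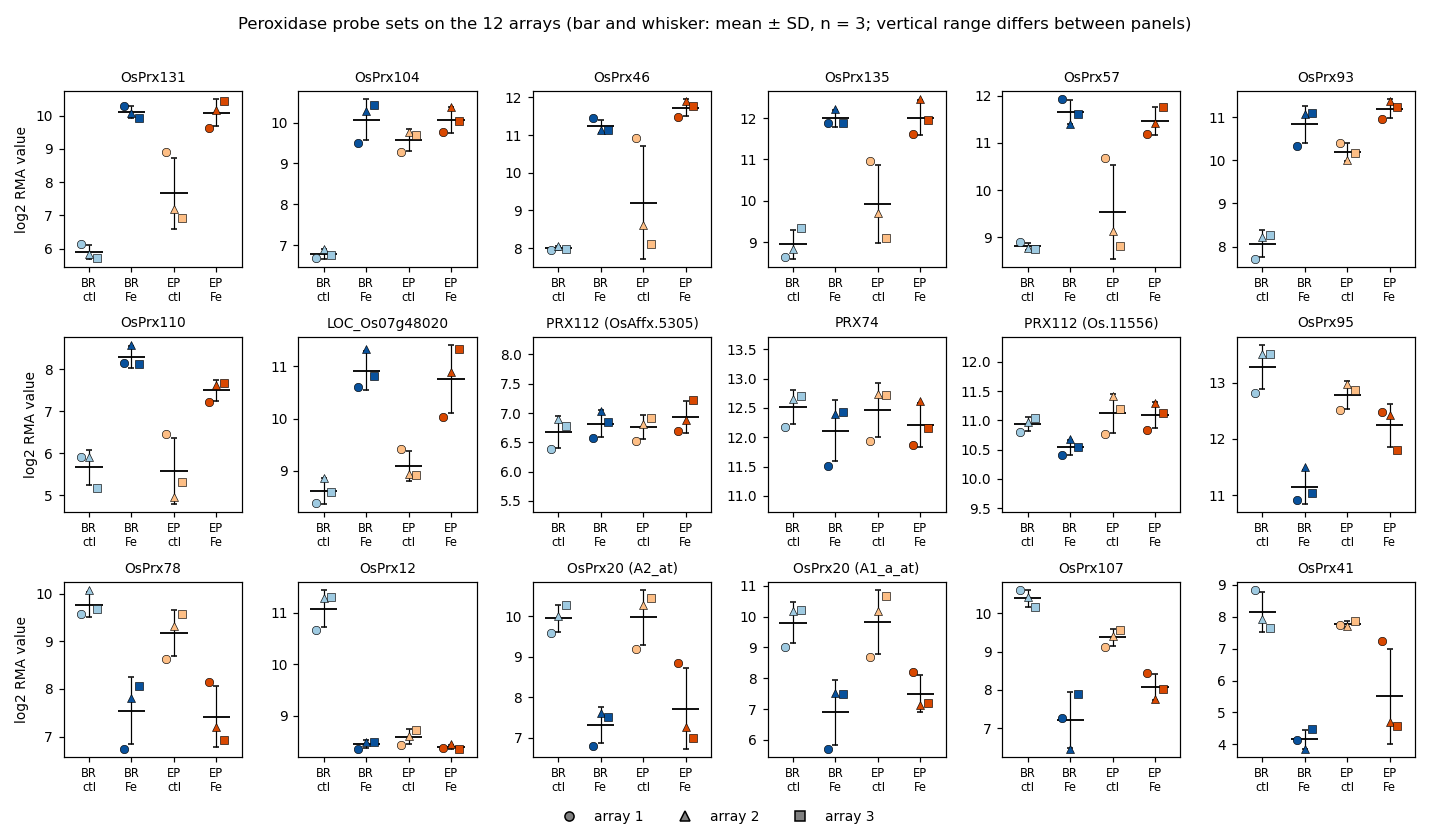
Log2 RMA values of the 18 peroxidase probe sets (vertical axes, 1 panel each, ordered by their change in BR-IRGA 409) on the arrays of BR-IRGA 409 (BR) and EPAGRI 108 (EP) in control (ctl) and excess Fe (Fe). Points are arrays, with the symbol giving the replicate number, and bars show the mean ± SD of 3 arrays. OsPrx12 lies between 8.36 and 8.73 on all arrays other than those of BR-IRGA 409 control, and the EPAGRI 108 control array 1 of OsPrx46, at 10.92, lies far above the other 2.

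The largest rise was that of OsPrx131 (LOC_Os11g02100), which read 6.14, 5.84 and 5.72 on the BR-IRGA 409 control arrays and 10.28, 10.09 and 9.92 on the excess Fe arrays. All 3 treated arrays stood far above all 3 controls, an 18.3-fold increase (log2 change 4.20, SE 0.40, limma adjusted p = 8.36e-05). OsPrx135 (LOC_Os12g02080) went from 8.65, 8.84 and 9.34 to 11.87, 12.23 and 11.89 in the same cultivar (3.05, SE 0.38, adjusted p = 0.000448). These 2 genes lie near the starts of chromosomes 11 and 12, which in rice carry a recent duplication, and their levels ran together over the 12 arrays (Pearson r = 0.974, n = 12 arrays that share the 4 groups). Whether a probe set of one also binds transcripts of the other was not tested.

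OsPrx46 (LOC_Os03g25340) was even within BR-IRGA 409 control, at 7.95, 8.06 and 7.99, and reached 11.44, 11.14 and 11.12 with excess Fe. That is a 9.41-fold rise (3.23, SE 0.51, adjusted p = 0.00209) with no overlap. OsPrx57 (LOC_Os04g55740) rose 7.16-fold, from between 8.76 and 8.90 to between 11.41 and 11.92 (adjusted p = 0.000544). OsPrx104 (LOC_Os07g34710) and OsPrx93 (LOC_Os06g48000) also rose in BR-IRGA 409 and are described with the cultivar differences below.

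OsPrx110 (LOC_Os07g48010) and its neighbour LOC_Os07g48020, which the study's tables name only as a peroxidase precursor, rose together. OsPrx110 was measured at 5.92, 5.91 and 5.18 in BR-IRGA 409 control and at 8.14, 8.59 and 8.13 in excess Fe (2.62, SE 0.33, adjusted p = 0.00047). LOC_Os07g48020 went from 8.38, 8.87 and 8.59 to 10.61, 11.33 and 10.82 (2.31, SE 0.29, adjusted p = 0.000486). In both, every treated array lay above every control array. PRX112, which follows the annotated gene of OsPrx110 in RefSeq's order on chromosome 7, was not called. Its probe set with the prefix Os changed by -0.40 (95% interval -0.76 to -0.04, adjusted p = 0.216), with control and treated arrays that did not overlap, and its probe set with the prefix OsAffx by 0.14 (95% interval -0.26 to 0.53). The 2 probe sets of PRX112 correlated weakly over the 12 arrays (r = 0.395), and both intervals lie below the change of either neighbour.

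The deepest fall in BR-IRGA 409 was that of OsPrx41 (LOC_Os03g22010), which read 8.85, 7.94 and 7.64 in control and 4.13, 3.85 and 4.48 in excess Fe. The 3 treated arrays all lay under the brightest control probe set of their array. The fall is therefore given as at least 11.2-fold, taking for each treated array the brightness of that control probe set in place of its own value (adjusted p = 0.000937). The measured mean fell from 8.14 ± 0.63 to 4.15 ± 0.31 (SD, n = 3). The name of this probe set, like those of OsPrx104 and 1 of OsPrx20, ends in a letter that marks probes shared by several transcripts.

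OsPrx20 (LOC_Os01g73170) was read by 2 probe sets that fell alike in BR-IRGA 409. The one whose name ends in A2_at went from 9.58, 9.99 and 10.26 to 6.79, 7.61 and 7.51 (-2.64, SE 0.45, adjusted p = 0.00321). The one ending in A1_a_at went from 9.03, 10.17 and 10.22 to 5.69, 7.51 and 7.5 (-2.91, SE 0.58, adjusted p = 0.00815). In both, array 1 was the lowest in either treatment, and the groups did not overlap. The array annotation gives the second of these to another gene, LOC4328841 on chromosome 2, whose other 2 probe sets stayed between 2.23 and 3.11 on all arrays, under the control probe sets. Over the 12 arrays it ran with the first OsPrx20 probe set (r = 0.969).

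The 4 further falls in BR-IRGA 409 were those of OsPrx107, OsPrx12, OsPrx78 and OsPrx95. OsPrx107 (LOC_Os07g44550) read 10.60, 10.42 and 10.16 in control and 7.27, 6.45 and 7.90 with excess Fe, a 9.08-fold fall (adjusted p = 6.96e-05). OsPrx78 (LOC_Os06g20150) fell 4.72-fold, from between 9.58 and 10.08 to between 6.73 and 8.07 (adjusted p = 0.00288). OsPrx95 (LOC_Os07g01410) went from 12.82, 13.51 and 13.50 to 10.91, 11.50 and 11.05 (-2.13, SE 0.24, adjusted p = 0.00023). No control array of these 3 was as low as a treated one. PRX74, the other member found by its symbol alone, was between 12.18 and 12.70 in control and between 11.51 and 12.43 in excess Fe. These ranges overlap, and the interval of its change spans 0 (-0.40, 95% interval -1.03 to 0.23). All 15 calls in BR-IRGA 409 held without any 1 of the 12 arrays and with the same-numbered arrays of a cultivar taken as pairs.

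**Figure D2:**
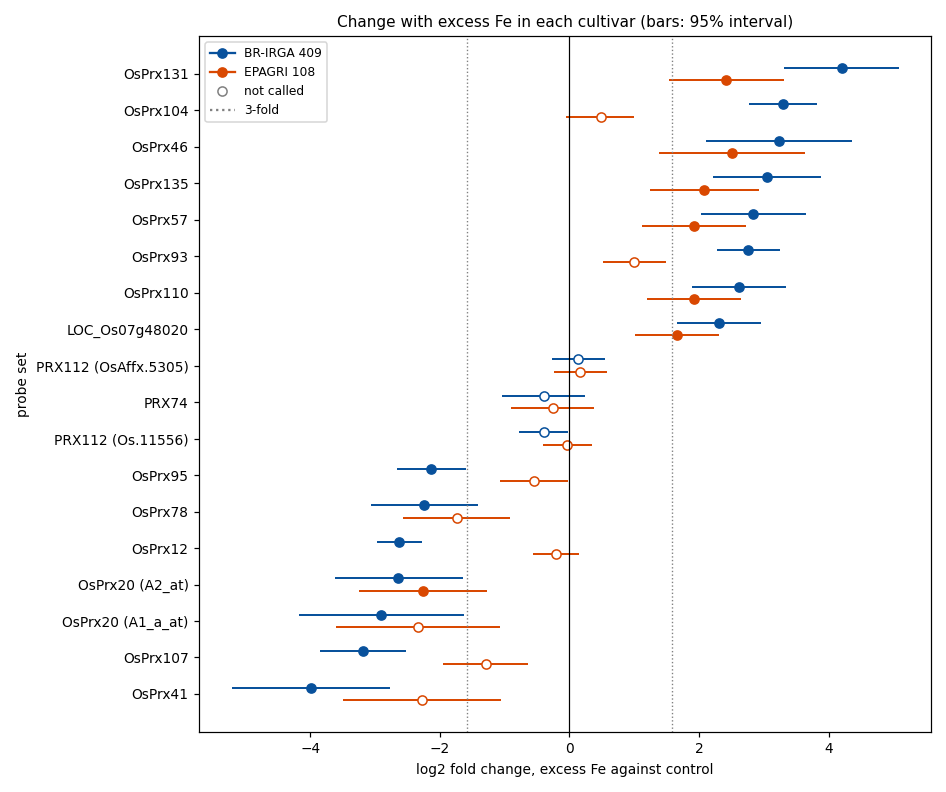
Change with excess Fe, as log2 fold over control, (horizontal axis) for the 18 peroxidase probe sets in BR-IRGA 409 (blue) and EPAGRI 108 (orange, by the array labels), with 95% intervals from limma as bars. Filled points were called, open points were not, dotted lines mark 3-fold, and OsPrx41 in BR-IRGA 409 is the fitted value of a change known only as a bound. OsPrx104, OsPrx93 and OsPrx12 show the called differences between the cultivars, with 3.29 against 0.48, 2.76 against 1.0 and -2.63 against -0.20.

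By the array labels, the EPAGRI 108 changes given here run opposite to those in the study's tables, and directions below follow the labels. On these labels, of the 18, 6 were called higher and 1 lower, where 0.283% and 0.0227% of all probe sets were called. The groups did not overlap in 7 that were higher and 6 that were lower, against 6.34% and 7.07% of all probe sets, and 8 of the 18 had been listed by the study for EPAGRI 108. The 7 calls turned on single arrays and on the fit. With the same-numbered arrays of a cultivar as pairs 0 of them were called (adjusted p from 0.0712 to 0.0754), as with 16 added to the linear values. Without any 1 of 10 of the 12 arrays 0 of the 18 were called. These 10 were all arrays other than the EPAGRI 108 arrays numbered 1, those of BR-IRGA 409 entering through the shared estimate of the spread. In all these settings 0 probe sets of the whole array were called in this comparison, so the loss was not particular to the peroxidases. The fitted changes of the 15 probe sets called in BR-IRGA 409 had the same sign here, among them OsPrx12 and OsPrx104 with intervals that include 0. Over all 23 alternatives the adjusted p of the 7 ran from 3.28e-06 to 0.685.

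The 6 probe sets called higher with excess Fe in EPAGRI 108 were those of OsPrx46, OsPrx131, OsPrx135, OsPrx110, OsPrx57 and LOC_Os07g48020. OsPrx46 read 10.92, 8.61 and 8.11 on the control arrays and 11.47, 11.91 and 11.78 on the excess Fe arrays (2.51, SE 0.51, adjusted p = 0.0454). Array 1 of the control group thus lay close to the treated arrays, and the other 2 far below. OsPrx131 showed the same shape, with 8.90, 7.18 and 6.91 in control and 9.64, 10.16 and 10.44 in excess Fe (2.42, SE 0.40, adjusted p = 0.0355). OsPrx135 (10.96, 9.71 and 9.10 against 11.62, 12.45 and 11.95) and OsPrx57 (10.68, 9.14 and 8.81 against 11.19, 11.42 and 11.77) repeated it, both with an adjusted p of 0.0392. In the pair of neighbours, OsPrx110 stood at 6.45, 4.95 and 5.32 in control and at 7.22, 7.62 and 7.67 in excess Fe (1.93, adjusted p = 0.0371), and LOC_Os07g48020 changed by 1.66 (adjusted p = 0.0392). None of these 6 overlapped between the groups.

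Only the OsPrx20 probe set ending in A2_at was called lower in EPAGRI 108. It read 9.19, 10.26 and 10.45 in control and 8.85, 7.27 and 7.0 in excess Fe (-2.26, SE 0.45, adjusted p = 0.042). Here array 1 of the treated group lay close to the controls. The other OsPrx20 probe set changed by -2.34 and missed the threshold (adjusted p = 0.0792). OsPrx41, at 7.75, 7.71 and 7.88 in control, read 7.23, 4.71 and 4.57 in excess Fe, with arrays 2 and 3 under the control probe sets (-2.28, SE 0.56, adjusted p = 0.0762). OsPrx78 changed by -1.74 (adjusted p = 0.0509), OsPrx107 by -1.29 (adjusted p = 0.0623) and OsPrx95 by -0.54 (95% interval -1.05 to -0.03, adjusted p = 0.443). The members found by symbol stayed near 0, with -0.03 (95% interval -0.40 to 0.33) and 0.17 (-0.22 to 0.57) for the probe sets of PRX112 and -0.25 (-0.88 to 0.37) for PRX74.

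The arrays numbered 1 of EPAGRI 108 narrowed these differences from both sides. Over the 8 probe sets that rose in BR-IRGA 409, the median level was 9.91 on EPAGRI 108 control array 1 and 9.04 and 8.87 on the other 2 controls, and it was 10.50 on excess Fe array 1 and 11.14 and 11.29 on the other 2. In 7 of the 8 the control array 1 was the highest of its group, and in all 8 the excess Fe array 1 was the lowest. Over the 7 that fell, the control array 1 was the lowest in 6 and the excess Fe array 1 the highest in 6. No such shift of both groups toward each other was seen for arrays 1 of BR-IRGA 409, where the median over the 8 was 7.83 against 8.14 and 8.13 in control and 10.47 against 11.10 and 10.95 in excess Fe.

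Without both of these arrays, a choice made after the data were seen, 11 of the 18 were called in EPAGRI 108, 6 higher and 5 lower. Calls also rose over all 57258 probe sets, to 520 higher and 78 lower, from 162 and 13 with all arrays. The gain was thus not particular to the peroxidases. OsPrx46 then changed by 3.49 (SE 0.17, adjusted p = 3.28e-06) and OsPrx131 by 3.25 (SE 0.18, adjusted p = 5.1e-06), with 2 arrays per group. The probe sets of OsPrx20 changed by -3.26 and -3.22 and OsPrx78 by -2.37, so that these 3 and OsPrx46 had larger fitted changes than in BR-IRGA 409. The size of the fall of OsPrx41 is only a bound there, since both remaining excess Fe arrays lay under the control probe sets. The 5 lower ones were OsPrx41, OsPrx107, OsPrx78 and both probe sets of OsPrx20. OsPrx12 (-0.27), OsPrx104 (0.47), OsPrx95 (-0.80) and OsPrx93 (1.22) were not called without these arrays either. Leaving out the control array 1 alone gave 9 calls among the 18, with 457 higher and 36 lower over all probe sets. Leaving out the excess Fe array 1 alone gave 10, with 240 higher and 55 lower over all probe sets.

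**Figure D3:**
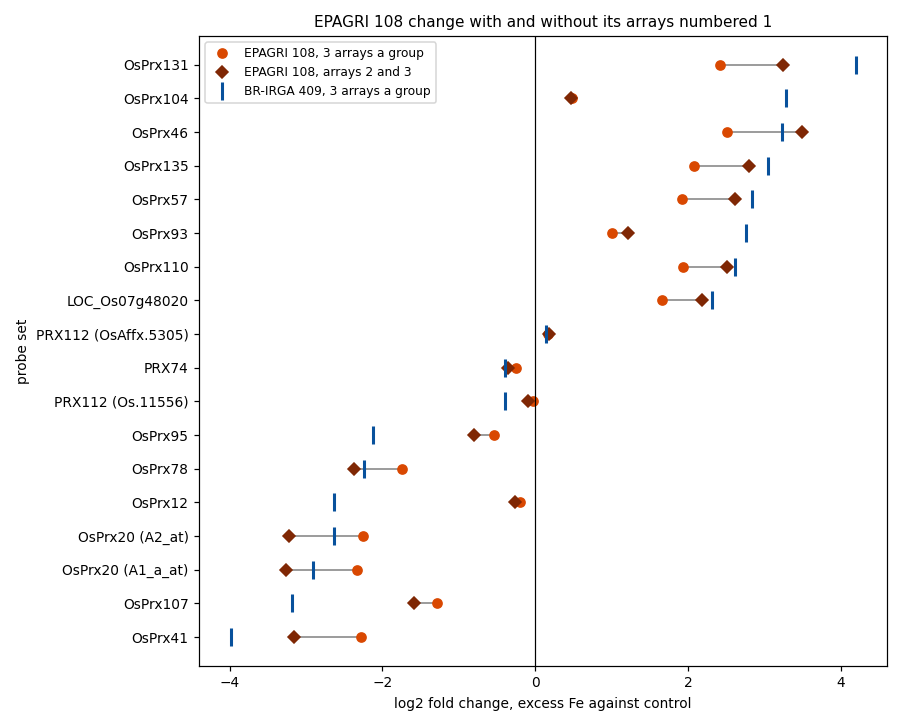
Change with excess Fe, as log2 fold over control, (horizontal axis) for each peroxidase probe set in EPAGRI 108 with all 3 arrays per group (circles) and with arrays 2 and 3 only (diamonds), beside the change in BR-IRGA 409 (blue bars). Without arrays 1 the change of OsPrx46 goes from 2.51 to 3.49, against 3.23 in BR-IRGA 409, while OsPrx12 goes from -0.20 to -0.27 and OsPrx104 from 0.48 to 0.47. The OsPrx41 values in BR-IRGA 409 and without arrays 1 are fitted values of changes known only as bounds.

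The test of the difference between the 2 responses called 3 of the 18 probe sets, OsPrx12, OsPrx104 and OsPrx93, where 0.14% of all probe sets were called. All 3 come from the tables of genes that changed in BR-IRGA 409 and are in no EPAGRI 108 table used here, of which one was held in part. The difference contains the BR-IRGA 409 response for which these 3 were listed, so the count is a description and no independent evidence. In EPAGRI 108 each stood, already in control, most of the way toward the level that BR-IRGA 409 reached with excess Fe.

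OsPrx12 (LOC_Os01g22230) read 10.66, 11.28 and 11.30 in BR-IRGA 409 control and 8.37, 8.50 and 8.49 in BR-IRGA 409 excess Fe. In EPAGRI 108 it read 8.43, 8.62 and 8.73 in control and 8.38, 8.45 and 8.36 in excess Fe. Only the 3 BR-IRGA 409 control arrays were high, and the other 9 all lay between 8.36 and 8.73. The response was -2.63 in BR-IRGA 409 (SE 0.16, adjusted p = 2.42e-06) and -0.20 in EPAGRI 108 (95% interval -0.54 to 0.14), a difference of -2.42 (SE 0.22, adjusted p = 0.000377). In control EPAGRI 108 was 5.59-fold lower than BR-IRGA 409 (adjusted p = 4.56e-07), and its control level stood at 94.6% of the way, on the log2 scale, from the BR-IRGA 409 control mean to the excess Fe mean. The leaf marker RBCS was also highest in BR-IRGA 409 control, with group means of 9.18 in control and 7.63 in excess Fe there and of 7.89 and 7.38 in EPAGRI 108. It changed by -1.54 in BR-IRGA 409 (adjusted p = 0.00047) and was lower in EPAGRI 108 control than in BR-IRGA 409 control (-1.29, adjusted p = 0.00142). The other detected leaf marker, CAB2R, had group means of 12.07 and 11.37 in BR-IRGA 409 and of 10.03 and 9.57 in EPAGRI 108. CAB2R changed by -0.70 in BR-IRGA 409 (adjusted p = 0.322) and was lower in EPAGRI 108 with excess Fe too (-1.80, adjusted p = 0.00979). The part of leaf-type RNA in the result for OsPrx12 was not tested, nor was how well its probes match each cultivar.

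OsPrx104 showed the mirror image. It read 6.68, 6.91 and 6.76 in BR-IRGA 409 control and 9.51, 10.29 and 10.42 in BR-IRGA 409 excess Fe, against 9.28, 9.78 and 9.69 in EPAGRI 108 control and 9.76, 10.38 and 10.04 in EPAGRI 108 excess Fe. Only the BR-IRGA 409 control arrays were low, and the EPAGRI 108 groups overlapped. The rise was 9.79-fold in BR-IRGA 409 (3.29, SE 0.23, adjusted p = 8.15e-06) and 0.48 in log2 in EPAGRI 108 (95% interval -0.03 to 0.98), a difference of 2.81 (SE 0.33, adjusted p = 0.00247). In control EPAGRI 108 was 6.98-fold higher (adjusted p = 6.51e-06), at 85.2% of the way.

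OsPrx93 read 7.71, 8.22 and 8.28 in BR-IRGA 409 control and 10.33, 11.06 and 11.09 in excess Fe. In EPAGRI 108 it read 10.40, 10.00 and 10.17 in control and 10.96, 11.38 and 11.24 in excess Fe, so that it was higher with excess Fe on every array in both cultivars. The change was 2.76 in BR-IRGA 409 (SE 0.22, adjusted p = 1.7e-05) and 1.0 in EPAGRI 108 (SE 0.22, adjusted p = 0.0511), and the difference of 1.76 passed narrowly (SE 0.31, adjusted p = 0.0462). That call held in 1 of the 12 fits that left out an array (adjusted p from 0.00747 to 0.155). A second probe set of the same design number, ending in x_at, which is listed in no table used here, gave 1.81 (adjusted p = 0.0121) and was called in all 12. Its name marks probes shared by several transcripts. Over the 12 arrays it ran with the first (r = 0.996), so it is not separate evidence. In control OsPrx93 was 4.35-fold higher in EPAGRI 108 (adjusted p = 4.74e-05), at 76.9% of the way.

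Under control conditions the cultivars differed by a call in 4 of the 18 probe sets, these 3 and OsPrx131, where 1.11% of all probe sets were called. This comparison played no part in the study's lists, but it shares the control arrays of both cultivars with them. The count is therefore not independent of how the members were chosen. OsPrx131 was 3.39-fold higher in EPAGRI 108 control (1.76, SE 0.40, adjusted p = 0.03). This difference rests in part on the EPAGRI 108 control array 1, without which it was 1.15, under 3-fold, and it was also not called without any 1 of the BR-IRGA 409 control arrays. With excess Fe 0 of the 18 were called between the cultivars, where 1.19% of all probe sets were called. At that share 0 of 18 does not show that the cultivars are alike. By an unadjusted p under 0.05 in limma 5 of the 18 passed, against 6590 of all 57258 probe sets, and the methods' t-test called none of the 18. For OsPrx12 the remaining difference was -0.06 (95% interval -0.40 to 0.28), for OsPrx104 it was -0.01 (-0.52 to 0.49) and for OsPrx131 it was -0.02 (-0.89 to 0.86). The difference of OsPrx95, 1.09 (SE 0.24), had an adjusted p of 0.0209 but was under 3-fold, and its 3 EPAGRI 108 arrays (12.48, 12.43 and 11.80) all lay above the 3 of BR-IRGA 409 (10.91, 11.50 and 11.05). OsPrx41 had 1 EPAGRI 108 array above the control probe sets and none in BR-IRGA 409, so no fold is given for it (adjusted p = 0.34).

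**Figure D4:**
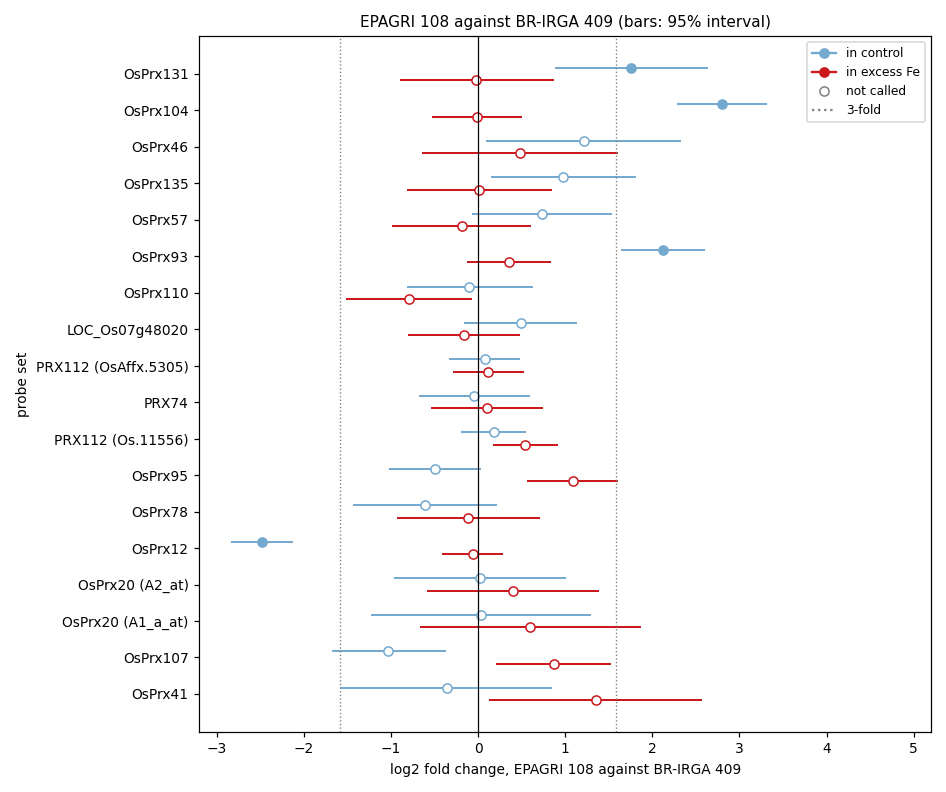
Log2 fold change of EPAGRI 108 against BR-IRGA 409 (horizontal axis) for the 18 peroxidase probe sets in control (light blue) and under excess Fe (red), with 95% intervals from limma as bars, filled points for calls and dotted lines at 3-fold. Under control conditions the calls are OsPrx104 (2.80), OsPrx93 (2.12), OsPrx131 (1.76) and OsPrx12 (-2.48), while 0 of the 18 were called with excess Fe. The OsPrx41 point in excess Fe is a fitted value that rests mostly on arrays under the control probe sets.

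The difference between the responses is what remains of the cultivar difference in control once that in excess Fe is subtracted, so these results are not separate evidence. For OsPrx107 and OsPrx95 the responses differed by -1.89 (95% interval -2.80 to -0.98, adjusted p = 0.18) and -1.59 (-2.31 to -0.86, adjusted p = 0.144), which did not pass over all probe sets. OsPrx107 was called without the BR-IRGA 409 excess Fe array 3 (-2.24, adjusted p = 0.0399). OsPrx131 (1.78, 0.55 to 3.01) did not pass either, and for OsPrx41, with no BR-IRGA 409 excess Fe array above the control probe sets, the size of the difference is not given. For OsPrx20, OsPrx46, OsPrx57, OsPrx78, OsPrx110, OsPrx135 and LOC_Os07g48020 the interval of the difference included 0. Over the 15 probe sets called in BR-IRGA 409, the EPAGRI 108 excess Fe level stood at between 48.9% (OsPrx95) and 115% (OsPrx46) of the way from the BR-IRGA 409 control mean to its excess Fe mean, with a median of 93.4%. The median includes OsPrx41 (66.1%), whose percentage rests on values under the control probe sets and is not a measured place.

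These readings depend on the EPAGRI 108 labels. The direction in the study's tables would have the labels of the 2 EPAGRI 108 groups exchanged. In that case 15 of the 18 probe sets would be called in the difference between the responses. The cultivars would then differ in 14 under control conditions and in 12 with excess Fe. Most of the 18 were listed for a change on these arrays, and the shares over all probe sets were not computed for exchanged labels. The counts are therefore a description and do not bear on which labels are right. Which direction holds was not tested with these arrays.

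Genes of steps around the peroxidases were taken by symbol, not for a change on these arrays, so their counts are not compared with those of the listed peroxidases. The lists held 36 genes found by symbol, of which 1 was called in BR-IRGA 409 and 0 in EPAGRI 108. By the adjusted p alone 2 were higher and 9 lower in BR-IRGA 409, where 7.64% of all probe sets passed, and 0 passed in EPAGRI 108, where 0.992% did. No dirigent protein gene was found by symbol.

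Of 17 genes of monolignol synthesis, which makes the alcohols that peroxidases and laccases couple into lignin, 0 were called in either cultivar, with a median change of -0.01 in BR-IRGA 409 and -0.12 in EPAGRI 108. The medians over all probe sets were -0.0346 and -0.0149. The cinnamyl alcohol dehydrogenase genes CAD6 and CAD8C changed by 0.62 (adjusted p = 0.00317) and -1.01 (adjusted p = 0.0161) in BR-IRGA 409, and the 4-coumarate-CoA ligase gene 4CL by -0.75 (adjusted p = 0.034).

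Laccases, copper enzymes that oxidise monolignols without hydrogen peroxide, numbered 9. LAC19 was called in BR-IRGA 409, from 5.76, 6.33 and 3.93 to 7.39, 7.81 and 7.15 (2.11, SE 0.49, adjusted p = 0.0203). The third control array was far below the other 2 and under the brightest control probe set of that array. The size of this change thus rests in part on a value that is not a measured level. LAC7 (-1.25, adjusted p = 0.00171), LAC10 (-0.82, adjusted p = 0.0122) and LAC4 (-0.46, adjusted p = 0.048) were lower at under 3-fold. LAC24 read 6.80, 7.31 and 5.81 in BR-IRGA 409 control and 8.53, 8.52 and 7.88 in excess Fe (1.67, adjusted p = 0.0731). In EPAGRI 108 it read 8.71, 6.89 and 6.39 in control and 9.30, 9.82 and 9.89 in excess Fe (2.34, SE 0.51, adjusted p = 0.0529), with control array 1 far above the other 2. None of the 9 passed in EPAGRI 108.

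The secondary wall cellulose synthase genes CESA4 (-0.62), CESA7 (-0.59) and CESA9 (-0.78) were lower in BR-IRGA 409 with adjusted p from 0.0197 to 0.0332, and BC1 changed by -0.43 (adjusted p = 0.0888). OsCASP1, which encodes a scaffold protein of the Casparian strip, was lower by -1.12 (SE 0.18, adjusted p = 0.00218) in BR-IRGA 409 and changed by -0.73 (adjusted p = 0.0786) in EPAGRI 108. Of the enzymes that supply hydrogen peroxide or its precursor, the 4 superoxide dismutase genes changed by between -0.08 and 0.33 in BR-IRGA 409 and the oxidase gene RBOHB by -0.14, with none passing in either cultivar.

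**Figure D5:**
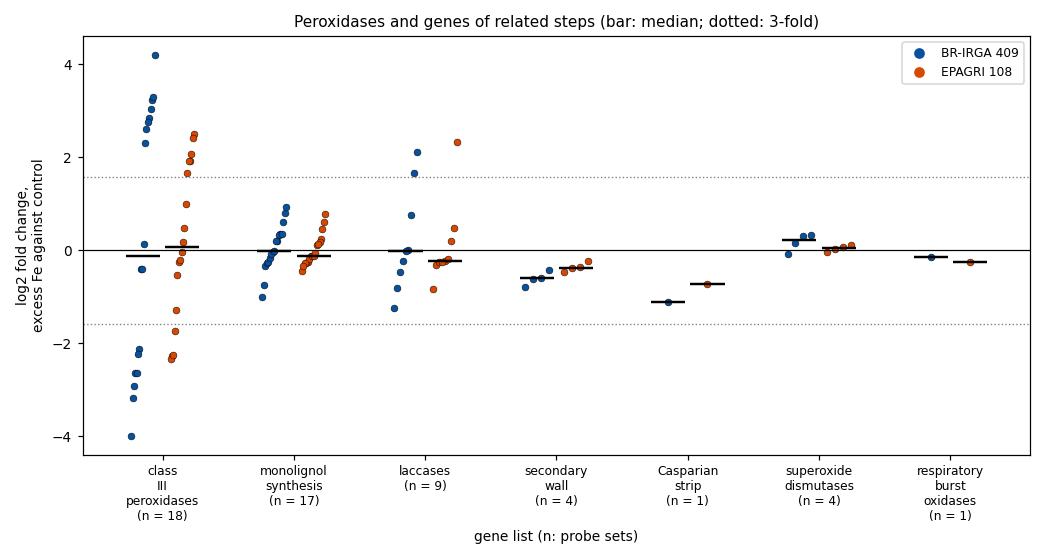
Change with excess Fe, as log2 fold over control, (vertical axis) for the 18 peroxidase probe sets and for genes of 6 related lists in BR-IRGA 409 (blue) and EPAGRI 108 (orange), with the median of each list as a black bar and dotted lines at 3-fold. The peroxidases were mostly listed for their change on these arrays. Among the other lists only LAC19 (2.11) was called, while LAC24 in both cultivars also lies above 3-fold without passing the test.

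Some markers of root cell types were lower with excess Fe in BR-IRGA 409, where 8 peroxidase probe sets rose and 7 fell. The root marker Lsi1 (-0.02, adjusted p = 0.973) and the stele marker PHO1-2 (-0.08, adjusted p = 0.841) stayed near 0 in that cultivar. The 2 endodermis markers, OsCASP1 and Lsi2, were both lower in BR-IRGA 409 by the adjusted p (Lsi2 -0.83, adjusted p = 0.00126), and their summed linear level was 6927 to 8647 in control and 4246 to 4522 in excess Fe. In EPAGRI 108 it was 7176 to 9252 and 5919 to 6447. Of 4 xylem and stele markers 3, the same CESA genes, were lower in BR-IRGA 409, with sums of 11970 to 12420 in control and 8677 to 10180 in excess Fe, against 11410 to 14090 and 9628 to 10630 in EPAGRI 108. Of 4 markers of dividing cells 1 was lower in BR-IRGA 409, with sums of 2018 to 2684 and 1304 to 1807. Their part in the peroxidase results was not tested.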

How the data were processed

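Root RNA of 12 samples was hybridised to 1 GeneChip Rice Genome Array each, in 4 groups of 3. The deposited values are on a log2 scale and were computed by the authors with RMA in ArrayAssist. Their methods then add a fixed quantity of unstated size to the linear values, and adding 16 was an alternative here. The table holds 57381 probe sets, of which 123 are controls and were left out. Peroxidases were found by symbol or synonym (3 probe sets) and by the descriptions in the study's tables (15), one of which was held only in part. The members and lists were chosen with earlier results of these data known.

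A model with a mean for each group was fitted in limma 3.58.1 (R 4.3.3) to the 12 arrays, with 8 residual degrees of freedom and two-sided tests, and was tested on simulated data. A call needed at least 3-fold and an adjusted p (Benjamini-Hochberg) under 0.05. Named were all members, and up to 4 genes of each pathway list (called genes first, then by the smallest adjusted p in BR-IRGA 409). LAC24 was named after its values were seen. Where no array of a group exceeded the brightest of 23 control probe sets without a rice target, the fold is a bound. No fold is given where the other group also had arrays under them. Python 3.11.15 with pandas 2.3.3 and matplotlib 3.10.9 gave the tables and plots.

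The numbers of the arrays were checked for pairing by correlating what each array deviated from its group mean, which gave 0.490, 0.209 and 0.108 for same-numbered arrays of BR-IRGA 409 and 0.454, 0.302 and 0.151 for EPAGRI 108. All lay over 0.1, but in BR-IRGA 409 the control array 3 was closer to the excess Fe array 2 (0.314), and the labels state no pairing. The number of arrays limits the precision. No genome or sequence was used.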

Additional observations from a re-analysis of the deposited data

Results flagged for a closer look

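The responses of 3 peroxidases to excess Fe differed between the cultivars by the test of the difference. That test takes the response of BR-IRGA 409 minus that of EPAGRI 108 by the array labels. All 3 were listed by the study for the BR-IRGA 409 response that it contains, so the calls are a description and no independent evidence. The difference was -2.42 for OsPrx12, 2.81 for OsPrx104 and 1.76 for OsPrx93 in log2. The calls of OsPrx12 and OsPrx104 held with each array left out, while that of OsPrx93 held in 1 of those 12 fits. A second probe set of the same design number as OsPrx93, its name ending in x_at, gave 1.81. Its levels ran with those of OsPrx93 (r = 0.996), so it is not separate evidence. Groups of 3 arrays are too small for the test for single arrays that stand apart, so the EPAGRI 108 arrays numbered 1 were described but not tested.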

How the results depend on the processing

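Of 36 results for single probe sets under 809 alternatives, 0 turned direction, 662 stayed on their side of the threshold, 132 lost their call and 15 gained one. Of the 132, 102 were EPAGRI 108 responses. In BR-IRGA 409, 15 members were called with each array left out in turn, and with the methods' t-test after adjustment 10 were. In EPAGRI 108, where 7 were called, the count was 0 with the adjusted t-test, 0 with 16 added, 0 with only the 2 groups compared in the fit, 0 with the replicate block within each cultivar, and 4 with a mean-variance trend and robust variances. It was 0 to 10 with 1 array left out and 11 without both arrays numbered 1. Wherever this count was 0, 0 of all probe sets were called as well. The replicate block over all 4 groups gave 9. In the difference between the responses 2 to 3 members were called with 1 array left out, and the replicate block within each cultivar kept all 3 (OsPrx93 adjusted p = 0.0167). Between the cultivars in control 3 to 4 were called with 1 array left out and 2 with the adjusted t-test, and in excess Fe 0 with 1 array left out and 1 at a 2-fold threshold. The paired fits changed no other call in BR-IRGA 409 or in the difference. The difference between the responses has no t-test and no fit of 2 groups, and the block within each cultivar cannot compare cultivars. Members at or under the control probe sets have only a bound or no fold, and 3 arrays per group limit every value.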
